A study of Rattus norvegicus with 2 samples.

Results

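The Wnt pathway was described in 2 RNA-seq libraries of primary oligodendrocyte precursor cells (OPCs), the glial cells that divide and form myelinating oligodendrocytes. Members were the 59 of 17049 genes in the expression table whose symbol names a Wnt ligand, R-spondin, Frizzled or Ror receptor, Lrp5 or Lrp6, an Lgr receptor, a secreted or membrane antagonist, Dishevelled, β-catenin, a part of the β-catenin destruction complex, or a Tcf/Lef factor. Names of these families without a row among the 59 were not analysed here. The rule used symbols only and no measured value, and it was set with earlier results of these data known. The cells came from the brain of adult rats labelled wild type. The group labelled Aβ received 1 µM amyloid-β, the peptide of Alzheimer plaques, for 2 days, and the group labelled DMSO is the solvent control. The treatment text of both samples names the amyloid-β exposure, so the groups follow the treatment label. Both grew in OGM medium under 5% CO2 at 37 °C. Each group is 1 library, the number of animals behind it is not given in the labels, and no difference below has a replicate check.

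Wnt proteins are secreted lipid-modified ligands that bind Frizzled receptors. In the canonical branch they also engage the coreceptors Lrp5 and Lrp6, Dishevelled is recruited, and the complex of Axin, Apc and Gsk3 stops marking β-catenin for destruction. β-catenin then enters the nucleus and works with Tcf/Lef factors, and several of the genes it switches on are inhibitors of the same pathway. In the oligodendrocyte lineage this branch is known for holding precursors back from differentiation, while Tcf7l2 is known as a marker of newly differentiating cells. Wnt7a and Wnt7b are known as ligands that OPCs and their ancestors present to blood vessels.

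The libraries held 15704932 (Aβ) and 15663751 (DMSO) estimated reads. Levels are given in TPM, which takes account of gene length and sequencing depth, so that genes can be compared with each other. Differences are given as the read ratio, which is Aβ over DMSO in reads per total reads, with an exact Clopper-Pearson 95% interval. This interval covers counting error of 2 libraries only and says nothing of the spread between cultures. In bulk RNA, fewer cells of a type and less RNA per cell cannot be told apart. OPC markers summed to 2686 TPM under Aβ against 2892 TPM under DMSO, a sum set by the abundant Olig1, Ptprz1 and Olig2. Single OPC markers went both ways. Cspg4 (540 and 303 reads, ratio 1.78, 1.54 to 2.05) and C1ql1 (80 and 41 reads, 1.95, 1.32 to 2.91) were higher in the Aβ library. Pdgfra (1514 and 1622 reads, 0.931, 0.867 to 0.999), Olig1 (0.908, 0.893 to 0.923) and Olig2 (0.890, 0.864 to 0.917) were lower. Vcan was near equality (1.03, 0.944 to 1.12). Sox10 stood at 0.84 and 1.22 TPM and Gpr17 at 0.13 TPM in both. Astrocyte markers were as abundant, with 11 of 12 at 1 TPM or more and sums of 2667 and 2663 TPM. Of 13 microglia markers 12 reached 1 TPM, and their sum was 352 TPM under Aβ against 401 TPM under DMSO. Markers of mature oligodendrocytes summed to 218 and 233 TPM, with 8 of 12 at 1 TPM or more, and those of neurons to 151 and 146 TPM, with 9 of 12. Schwann cell markers summed to 740 and 735 TPM, led by S100b, which is also on the astrocyte list. Summed markers of fibroblasts (65.4 and 71.9 TPM), endothelium (8.39 and 7.78 TPM), pericytes (20.2 and 19.3 TPM) and ependyma (13.4 and 14.2 TPM) were lower. Which cells of the cultures made each Wnt transcript was not tested.

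Large differences between the libraries were rare, among the members as among all genes. Of the 59 members, 40 reached 1 TPM in either library, and none of these was 2-fold apart on the log2(TPM + 1) scale. That size was passed by 0.994% of 12980 genes, so 0 of 40 is close to the share of all genes. A smaller size, given below, was passed by 27.5% of members and 11.6% of all genes. Read ratios were read for the 40 members with 50 or more reads over both libraries, of which 39 were also among those at 1 TPM. Of these 40, 21 had a ratio above 1 and 19 below 1, with a median log2 read ratio of 0.01, against 0.00 over the 12515 genes with as many reads. Of those 12515 genes, 6335 had a ratio above 1 and 6180 below. The read interval excluded 1 for 9 of 40 members (22.5%), a share close to the 24.9% of all genes. It was above 1 for 4 members, Wnt10a, Fzd9, Gsk3a and Sfrp1, as for 12.2% of all genes. It was below 1 for 5, Nkd2, Fzd3, Axin2, Lrp6 and Gsk3b, as for 12.7% of all genes.

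A read ratio at least 25% above 1 or 20% below it was reached by 11 of 40 members (27.5%) and by 11.6% of all genes with 50 or more reads. The 4 higher members by this size were Wnt10a, Fzd8, Fzd9 and Dkk3, where 6.35% of all genes were as high. The 7 lower ones were Fzd5, Nkd2, Znrf3, Lef1, Wnt5b, Fzd3 and Axin2, where 5.27% of all genes were as low. The share differs with depth. Of the 9 members with 50 to under 200 reads 7 passed it, where 39.3% of all genes of that depth did. Of 15 members with 200 to under 1000 reads 3 passed it, against 12.3% of all genes. Of the 11 members with 1000 to under 5000 reads only Fzd3 did, against 3.14% of all genes, and of the 5 deeper ones 0, against 2.48%. Counts over all members are descriptions and were not tested.

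**Figure D1:**
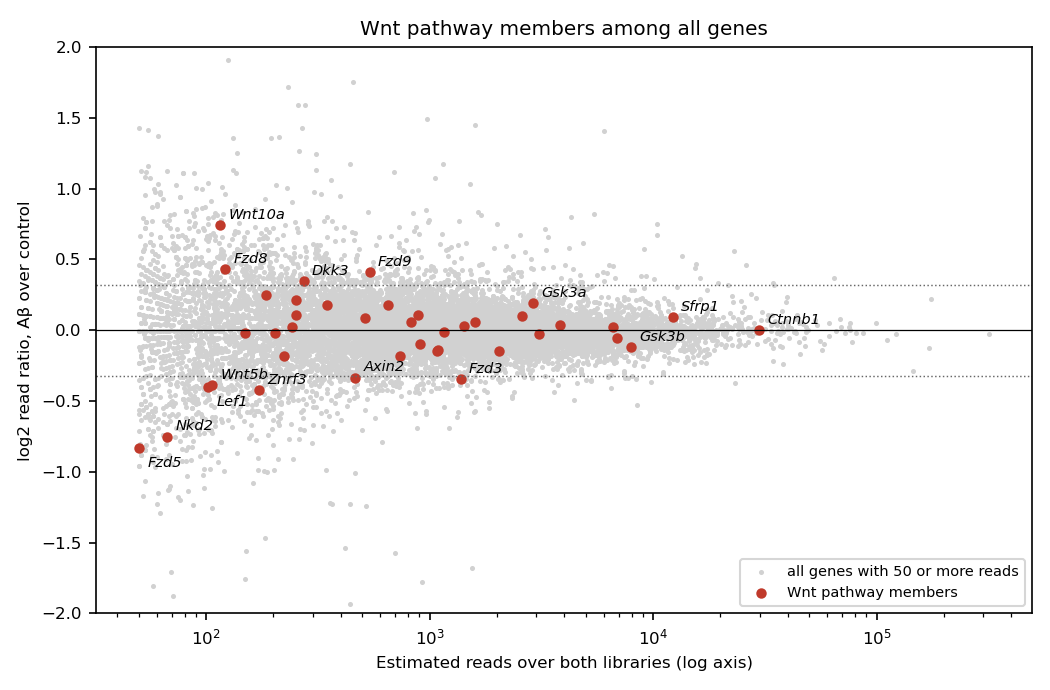
Each point is a gene with 50 or more estimated reads over both libraries, placed by that sum (log axis) and by its log2 read ratio, Aβ over control, with the Wnt pathway members in red and dotted lines at 25% above and 20% below equality. The 40 members lie within the cloud of the other genes and spread more at low read numbers, and 8 genes beyond 2 on the log2 scale and 11 with 0 reads in 1 library are not drawn.

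Among the 15 Wnt ligands, Wnt7b and Wnt7a made up most of the transcript. Wnt7b was at 93.6 TPM under Aβ against 92.1 TPM under DMSO, and Wnt7a at 51.3 and 52.0 TPM. Together they held 86.3% of the summed ligand TPM under Aβ against 87.6% under DMSO. On 719 and 701 reads the ratio of Wnt7b was 1.02 (0.921 to 1.14), and on 1525 and 1552 reads that of Wnt7a was 0.980 (0.913 to 1.05). For the main ligands of these cultures the intervals thus stayed between 0.913 and 1.14.

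Wnt5a, the prototype of ligands that act outside the β-catenin branch, came next at 10.3 and 9.53 TPM. Its reads of 419 and 402 gave a ratio of 1.04 (0.904 to 1.19). Wnt16 had 74 and 75 reads (0.984, 0.704 to 1.38). Wnt5b, the close relative of Wnt5a, had 46 reads under Aβ against 60 under DMSO, a ratio of 0.765 (0.509 to 1.14). It was more than 20% below 1, and its interval included 1.

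Wnt10a was the ligand that differed most among those with 50 or more reads. It was at 3.19 TPM under Aβ against 1.90 TPM under DMSO, on 72 and 43 reads. The read ratio of 1.67 (1.13 to 2.50) was the highest of the 40 members, and Wnt10a is a ligand of the β-catenin branch. It held 1.90% of the summed ligand TPM under Aβ against 1.16% under DMSO. The difference rests on few reads.

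The other 9 ligands lay under 50 reads and under 1 TPM in both libraries. Wnt3 had 24 reads under Aβ against 13 under DMSO, Wnt6 15 and 9, and Wnt9a 14 and 8. Wnt4 had 6 and 4 reads. All 4 were higher with Aβ in number, and each interval included 1, as for Wnt3 at 1.84 (0.901 to 3.94). Wnt2b was lower, at 9 and 14 reads (0.641, 0.245 to 1.59). Wnt2 had 5 reads in each library and Wnt11 had 1 in each. Wnt9b had 5 reads under Aβ against 0 under DMSO, and Wnt8b 0 and 1. Where a library shows 0 reads, as many as 3 are within counting error, which is 0.191 CPM (reads scaled to the library total) for Aβ and 0.192 CPM for DMSO.

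**Figure D2:**
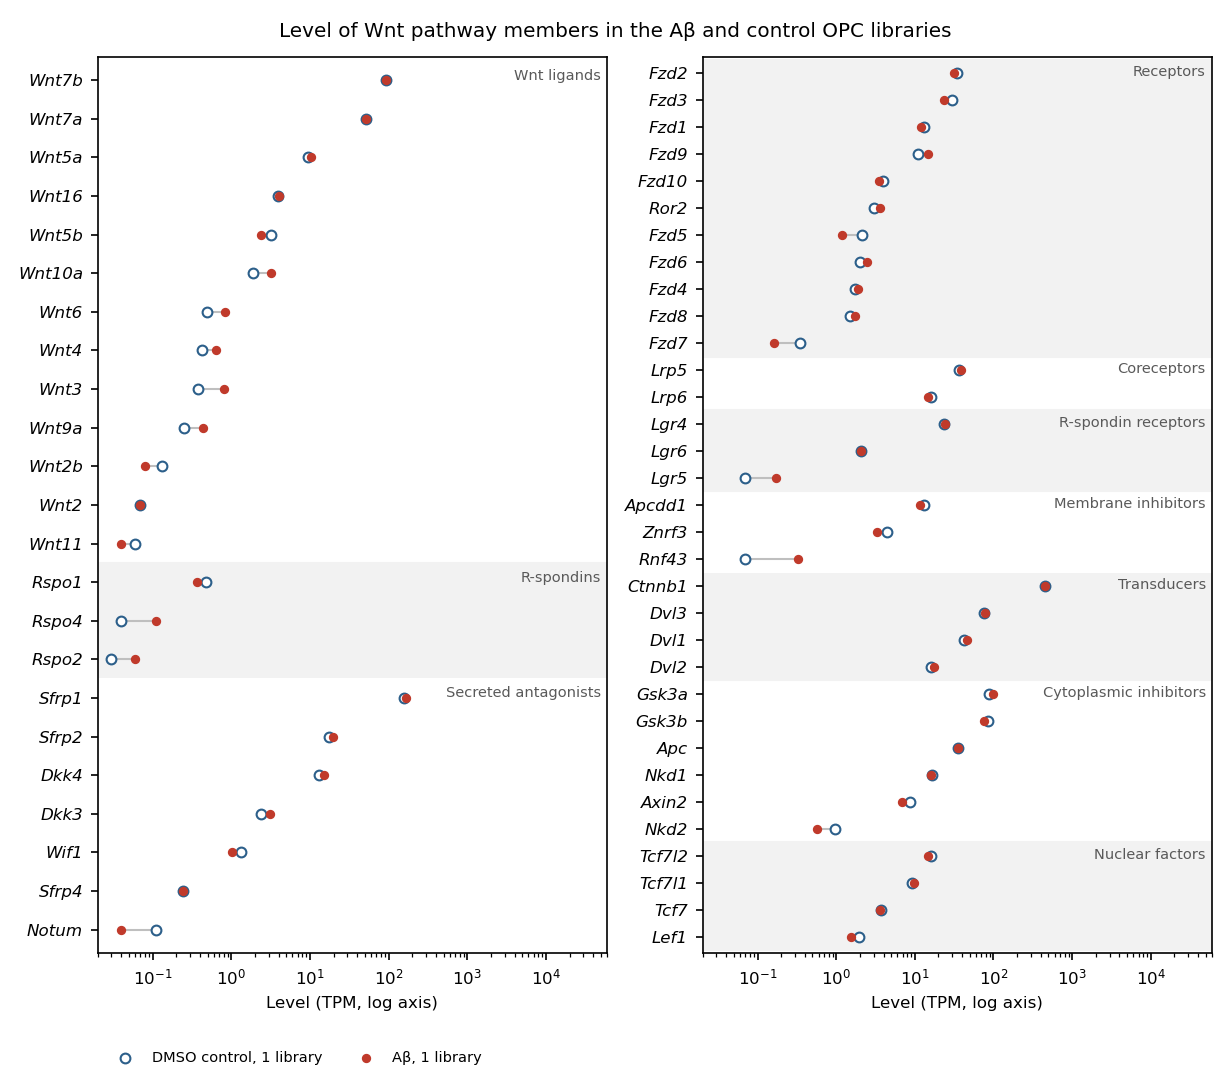
Level in TPM (log axis) of 56 members in the Aβ library (filled red) and the DMSO control library (open blue), grouped by role, 1 library each and with no error bar. Ctnnb1 and Sfrp1 stand highest, many marker pairs overlap, and the 3 members with 0 reads in 1 library (Wnt8b, Wnt9b and Sfrp5) are not drawn.

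R-spondins, secreted proteins that strengthen Wnt signalling by removing the ligases Znrf3 and Rnf43 from the membrane, were nearly undetected. Rspo1 had 6 and 7 reads, Rspo2 4 and 2, and Rspo4 3 and 1. Their receptor Lgr4 was well expressed, at 24.4 TPM under Aβ against 23.2 TPM under DMSO (ratio 1.04, 0.942 to 1.15, on 812 and 778 reads). Lgr6 had 122 and 120 reads (1.01, 0.782 to 1.32). Lgr5, the stem cell marker of the gut, had 8 and 2 reads (3.99, 0.796 to 38.6).

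Secreted antagonists were led by Sfrp1, a Frizzled-like protein that binds Wnts outside the cell. It was at 168 TPM under Aβ against 157 TPM under DMSO, and held 81.1% and 81.8% of the summed TPM of this group. All 4 members of the group with 50 or more reads had a ratio above 1, where 6335 of 12515 genes did. Their median log2 read ratio was 0.18. Wif1, under that filter, had a ratio below 1. For Sfrp1, on 6305 and 5903 reads, the ratio was 1.07 (1.03 to 1.10). Sfrp2 was at 19.9 and 17.5 TPM (347 and 306 reads, 1.13, 0.967 to 1.32). The Lrp5 and Lrp6 blocker Dkk4 was at 15.0 and 13.2 TPM (185 and 163 reads, 1.13, 0.912 to 1.41). Dkk3, a relative that does not act as a typical Lrp blocker, had 153 and 120 reads (1.27, 0.995 to 1.63). The read interval excluded 1 for Sfrp1 alone, at a difference of a few percent.

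The other secreted antagonists were scarce. Wif1, which binds Wnts directly, had 20 reads under Aβ against 26 under DMSO (0.767, 0.406 to 1.43) at 1.01 and 1.31 TPM. Sfrp4 had 4 reads in each library, Notum, an enzyme that strips the lipid from Wnts, 1 and 2, and Sfrp5 1 and 0.

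Among the receptors, Fzd3 was lower and Fzd9 higher in the Aβ library by read interval. Fzd2 (31.1 and 34.1 TPM) and Fzd3 (23.7 and 29.9 TPM) were the most abundant Frizzleds in both libraries. Fzd9 (14.7 and 11.0 TPM) was above Fzd1 (11.97 and 13.13 TPM) with Aβ and below it in the control. The remaining receptors with 50 or more reads were at 1.19 to 3.93 TPM. The summed receptor TPM was 96.0 under Aβ against 102.9 under DMSO.

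Fzd3 (gene number 266715), a receptor best known from planar polarity and axon growth, had 606 reads under Aβ against 768 under DMSO. Its ratio of 0.787 (0.706 to 0.877) was the lowest of the 31 members with 200 or more reads. It held 24.7% of the summed receptor TPM under Aβ against 29.1% under DMSO. Fzd9 (gene number 266608), which can signal to β-catenin, had 308 reads under Aβ against 231 under DMSO. The ratio was 1.33 (1.12 to 1.58), the highest of those 31 members, and its share of the receptor TPM was 15.3% against 10.7%. Fzd9 made up 33.7% (exact 95% interval 30.6 to 36.9) of the reads of Fzd9 and Fzd3 together with Aβ and 23.1% (20.5 to 25.9) in the control. This share does not depend on the scaling of the libraries, and the genes were put side by side after their values were seen.

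Other Frizzleds lay closer to equality or on fewer reads. Fzd2 was at 0.909 (0.805 to 1.02, 522 and 573 reads) and Fzd1 at 0.904 (0.8004 to 1.02, 512 and 565 reads). Fzd10 had 105 and 119 reads (0.880, 0.670 to 1.15). Fzd5 had 18 and 32 reads, the fewest of any member read for a ratio, and stood at 0.561 (0.297 to 1.03). On the other side were Fzd4 with 131 and 121 reads (1.08, 0.837 to 1.39) and Fzd6 with 101 and 85 (1.19, 0.879 to 1.601). Fzd8 had 70.01 and 51.79 estimated reads, which are not whole, and a read ratio of 1.35 (0.924 to 1.96), while its TPM ratio was 1.13. The tyrosine kinase receptor Ror2, which binds Wnt5a, had 136 and 117 reads (1.16, 0.899 to 1.497). Of the 10 receptors read, 5 had a ratio above 1 and 5 below.

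The row named Fzd7 had 6 reads under Aβ against 13 under DMSO. Its gene number, 301440, belongs to the kinase gene Cdk15 in the RefSeq gene table of build GRCr8, so which of these genes the row counts is uncertain. The other 58 members carried the same symbol there.

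The coreceptors Lrp5 and Lrp6 were at 38.3 and 14.6 TPM with Aβ and 37.0 and 15.9 TPM in the control. Lrp5 had 1950 and 1897 reads (1.03, 0.962 to 1.09). Lrp6 had 975 and 1076 reads, and its interval lay just below 1 (0.904, 0.828 to 0.986). As a share of the reads of both genes, Lrp5 was 66.7% (64.9 to 68.4) with Aβ and 63.8% (62.1 to 65.5) in the control. These 2 intervals overlap at their ends, which does not show that the shares are equal.

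**Figure D3:**
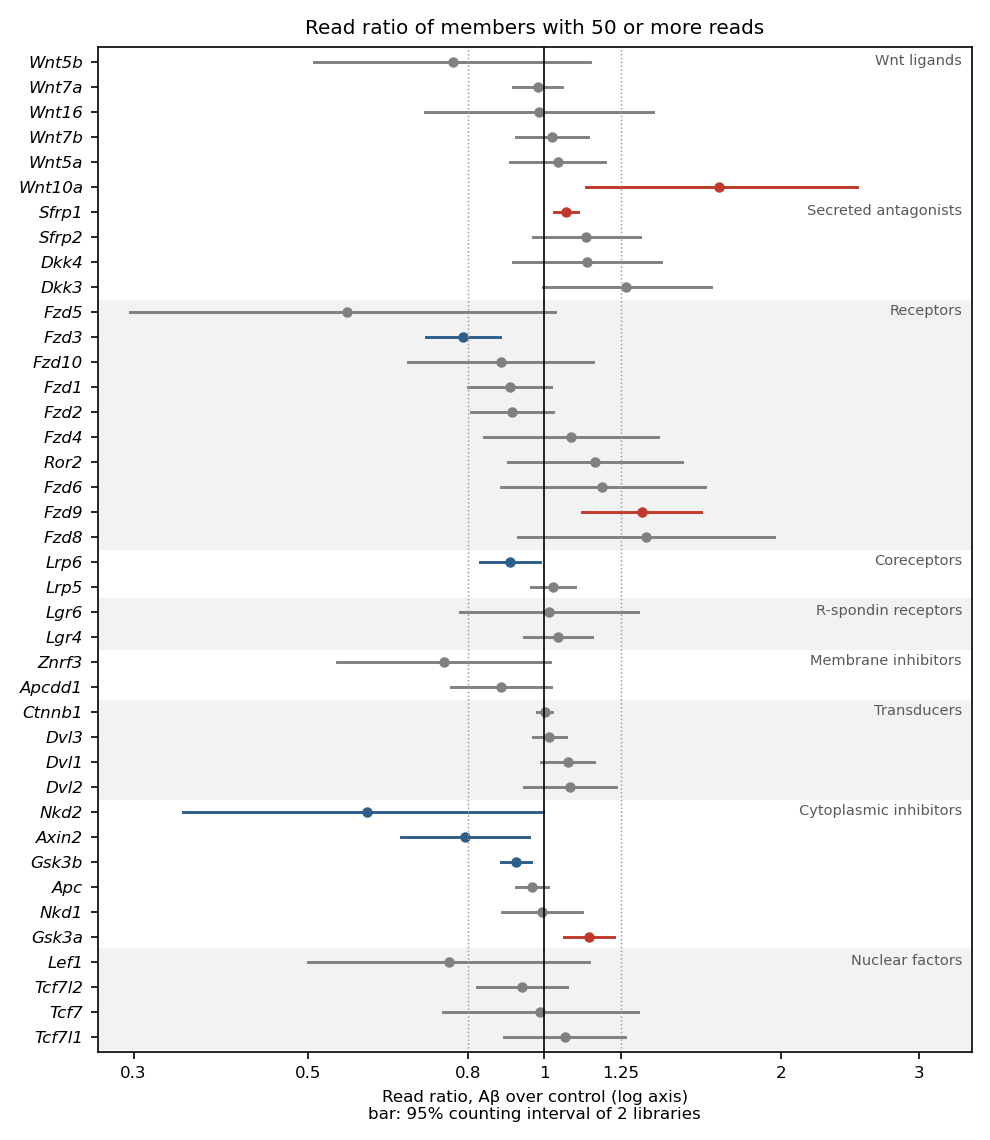
Read ratio, Aβ over control, on a log axis for the 40 members with 50 or more reads, grouped by role. Points are the ratio of 2 libraries and bars the 95% counting interval, coloured red or blue where the interval lies above or below 1, and dotted lines mark 25% above and 20% below equality. Wnt10a stands highest and Fzd5 lowest, and the bars of Ctnnb1 and Sfrp1 are the narrowest.

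β-catenin itself, encoded by Ctnnb1, was the most abundant member at 456.4 TPM under Aβ against 450.1 TPM under DMSO. Its 14941 and 14898 reads gave a ratio of 1.00 (0.978 to 1.02). Transcript level does not measure how much β-catenin protein is stabilised. The Dishevelled genes, which carry the signal from the receptor, were at ratios of 1.01 for Dvl3 (0.966 to 1.06), 1.07 for Dvl1 (0.991 to 1.16, on reads that are not whole) and 1.08 for Dvl2 (0.942 to 1.23). Dvl3 was the most abundant of them, at 77.7 and 75.9 TPM. All 4 intervals of these transducers included 1.

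The Gsk3 kinases, which mark β-catenin for destruction and act in many other pathways, differed in opposite directions. Gsk3a was at 99.1 TPM under Aβ against 86.8 TPM under DMSO, on 1546 and 1353 reads, a ratio of 1.14 (1.06 to 1.23). Gsk3b was at 75.5 and 84.2 TPM, on 3834 and 4156 reads, a ratio of 0.920 (0.880 to 0.962). In the control library their TPM were nearly equal, and with Aβ Gsk3a was the higher. Gsk3a made up 28.7% (27.5 to 30.0) of the reads of both genes with Aβ and 24.6% (23.4 to 25.7) in the control, intervals that do not overlap. The scaffold Apc of the same complex had 3372 and 3490 reads (0.964, 0.919 to 1.01).

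Among inhibitors that β-catenin and Tcf/Lef factors are known to switch on, Axin2 was lower in the Aβ library by read interval, and for the others the interval included 1. Axin2 (gene number 29134), the scaffold most used as a readout of the canonical branch, was at 6.97 TPM under Aβ against 8.73 TPM under DMSO. Its 205 and 258 reads gave a ratio of 0.792 (0.656 to 0.956). Znrf3, a ligase that removes Frizzleds from the membrane, had 74 and 99 reads (0.746, 0.544 to 1.02). Apcdd1, a membrane protein that binds Wnts and Lrp5, was at 11.7 and 13.2 TPM (346 and 392 reads, 0.880, 0.760 to 1.02). Nkd1, which binds Dishevelled, was at 16.2 and 16.8 TPM (576 and 579 reads, 0.992, 0.883 to 1.12). Rnf43, the partner of Znrf3, had 9 and 3 reads (2.99, 0.747 to 17.2).

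Nkd2, the relative of Nkd1, had 25 reads under Aβ against 42 under DMSO at under 1 TPM in both. Its ratio of 0.594 (0.347 to 0.997) had an interval whose upper end nearly touched 1. The 6 cytoplasmic inhibitors, with Gsk3a as the sole one above 1, had a median log2 read ratio of −0.09.

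Promoter sequences of build GRCr8 from RefSeq were searched in a window of 250 bases before to 50 bases after the gene start for the Tcf/Lef core CTTTGA and its reverse complement TCAAAG. By gene number and symbol 42 of the 59 members had an entry. No entry was found for Dkk3, Dkk4, Fzd2, Fzd3, Fzd6, Fzd7, Lgr5, Lrp5, Lrp6, Notum, Rspo2, Rspo4, Sfrp1, Sfrp4, Wnt5b, Wnt7b and Znrf3. The core was found in 5 of 42 (11.9%), namely Axin2, Apcdd1, Nkd1, Tcf7 and Gsk3a, against 15.9% of the promoters of 27457 genes and 12.1% of those of 12960 genes in the expression table. Members as a whole therefore held it about as often as other genes. Axin2 was the only one of the 5 with more than 1 match.

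The 250 bases before the start are shown for the 3 feedback inhibitors that hold the core and for Wnt10a, the ligand with the highest ratio, which does not. Each is written 5′ to 3′ on the strand of the gene, with capitals marking the core. Axin2 lies at chr10:94398535-94398784 on the plus strand, with matches starting 232 and 132 bases before the start. Apcdd1 lies at chr18:58655446-58655695 on the plus strand, with a match 214 bases before the start. Nkd1 lies at chr19:34722847-34723096 on the minus strand, with a match 141 bases before the start. Wnt10a lies at chr9:83798344-83798593 on the plus strand. A match is a run of letters and no evidence of binding.
Axin2: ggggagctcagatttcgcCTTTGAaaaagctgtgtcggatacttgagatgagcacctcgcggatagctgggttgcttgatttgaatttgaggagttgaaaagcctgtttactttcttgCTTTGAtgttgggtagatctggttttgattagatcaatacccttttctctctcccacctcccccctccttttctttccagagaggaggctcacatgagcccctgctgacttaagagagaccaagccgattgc
Apcdd1: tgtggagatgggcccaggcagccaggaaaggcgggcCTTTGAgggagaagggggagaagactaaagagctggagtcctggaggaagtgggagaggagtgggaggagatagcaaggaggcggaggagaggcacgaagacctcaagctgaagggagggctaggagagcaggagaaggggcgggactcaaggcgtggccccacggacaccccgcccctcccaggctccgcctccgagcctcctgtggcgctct
Nkd1: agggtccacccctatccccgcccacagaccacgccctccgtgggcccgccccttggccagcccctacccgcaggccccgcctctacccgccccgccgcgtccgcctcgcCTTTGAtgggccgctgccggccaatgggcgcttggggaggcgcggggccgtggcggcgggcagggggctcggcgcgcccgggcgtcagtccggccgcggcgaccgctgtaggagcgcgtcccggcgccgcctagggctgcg
Wnt10a: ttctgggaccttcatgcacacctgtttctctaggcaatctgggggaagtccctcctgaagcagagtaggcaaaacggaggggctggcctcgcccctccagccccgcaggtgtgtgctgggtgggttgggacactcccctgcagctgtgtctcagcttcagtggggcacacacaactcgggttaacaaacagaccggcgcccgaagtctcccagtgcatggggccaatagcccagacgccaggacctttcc

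Of the nuclear factors, Tcf7l2 was the most abundant at 14.9 TPM under Aβ against 15.8 TPM under DMSO (440 and 469 reads, 0.936, 0.8197 to 1.07). Tcf7l1, which often acts as a repressor, was at 9.72 and 9.14 TPM (264 and 248 reads, 1.06, 0.889 to 1.27). Tcf7 had 101 and 102 reads (0.988, 0.743 to 1.31). Lef1, both a factor and a target of the pathway, had 44 and 58 reads (0.757, 0.499 to 1.14). No interval of these 4 excluded 1.

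Members that are also known targets of the pathway were put together after their values were seen, so their count supports nothing. They were Axin2, Nkd1, Znrf3, Rnf43, Lgr5, Lef1, Tcf7, Apcdd1, Notum, Dkk4 and Wif1. Of the 7 with 50 or more reads, 6 had a ratio below 1 and Dkk4 above 1, the median log2 read ratio was −0.18, and the interval excluded 1 for Axin2 alone.

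Targets outside the members came from a list of which 38 genes were in the table and 23 had 50 or more reads. Their ratios were 11 above 1 and 12 below, with a median log2 read ratio of 0.00. By read interval 7 were above 1 and 3 below, or 43.5% in all, where 24.9% of all genes were called either way. Calls by interval depend on depth, from 14.6% of all genes with 50 to under 200 reads to 27.0% with 1000 to under 5000 and 49.2% with 5000 or more, so shares of the lists cannot be read apart from their reads. Named by size, Vegfa, an angiogenic factor, had 1347 and 1018 reads (1.32, 1.22 to 1.43), and the osteogenic factor Runx2 84 and 62 (1.35, 0.962 to 1.91). The mitotic gene Birc5 had 457 and 578 reads (0.789, 0.696 to 0.893), and the ephrin receptor Ephb2, on 20 and 39, stood at 0.511 (0.283 to 0.899). These genes have many regulators besides Wnt. Picked after their values were seen, the classical targets Ccnd1, at 653 and 652 TPM, and Myc, at 114 and 109 TPM, had ratios of 0.993 (0.975 to 1.01) and 1.04 (0.984 to 1.10). Sp5, likewise picked, had 2 and 4 reads. Other genes of the list, also picked after their values were seen, did differ by interval. Cd44, on 10900 and 8634 reads (1.26, 1.22 to 1.30), and Ccnd2 (1.17, 1.06 to 1.29) were above 1, and Enc1 (0.867, 0.810 to 0.928) was below.

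Genes that make and release Wnts were close to equal. All 9 were measured, and 7 had a ratio above 1, where 6335 of 12515 genes did. The interval lay above 1 for 4 and below it for 0 (44.4% in all), where 12.2% and 12.7% of all genes were so called (24.9% in all). Porcn, the enzyme that attaches the lipid, was at 1.11 (0.951 to 1.29), and Wls, the carrier of Wnts to the surface, at 0.943 (0.888 to 1.002). The trafficking genes Vps29 (1.13, 1.03 to 1.24) and Tmed5 (1.08, 1.002 to 1.15) had intervals above 1.

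Of other coreceptors and extracellular modulators 15 had 50 or more reads, and 11 of these had a ratio below 1, with a median log2 read ratio of −0.11. For all genes with 50 or more reads the split was 6335 above 1 and 6180 below. The interval lay above 1 for 1 gene, Igfbp4, a secreted IGF-binding protein that also antagonises Wnt, at 64.8 and 50.6 TPM (1.28, 1.17 to 1.39). It lay below 1 for 2 genes, so that 20% of the 15 were called, where 24.9% of all genes were. Reck, which with Adgra2 lets vessels sense Wnt7a and Wnt7b, was at 0.876 (0.711 to 1.08). Cthrc1 was at 1.19 (0.968 to 1.46) and Shisa3 had 29 and 34 reads.

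Cytoplasmic regulators outside the members had 12 of 33 ratios above 1 and 21 below, with the interval above 1 for 5 and below 1 for 6. That was 33.3% in all, where 24.9% of all genes were so called. Amer1, which brings the destruction complex to the membrane, had 39 reads under Aβ against 74 under DMSO (0.526, 0.347 to 0.785). Daam2, known as an activator of Wnt signalling in oligodendrocyte precursors, was at 5.48 and 6.51 TPM (0.834, 0.720 to 0.967). Dact1, a Dishevelled binder, was at 1.245 (1.02 to 1.53), and the kinase Csnk1g1 at 1.21 (0.890 to 1.65). Cxxc5 was higher than both, with estimated reads of 3386.51 and 2654.74 that are not whole (1.27, 1.21 to 1.34).

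Nuclear partners had 9 of 26 ratios above 1, with the interval above 1 for 4 and below 1 for 5 (34.6% in all, against 24.9% of all genes). The corepressor Tle3 was at 20.8 TPM under Aβ against 28.1 TPM under DMSO (983 and 1354 reads, 0.724, 0.666 to 0.787), and the related Tle2 went the other way (1.27, 1.07 to 1.52). Tbl1x was at 0.876 (0.816 to 0.939) and Pygo1 at 1.31 (0.941 to 1.82).

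The planar polarity and calcium list, the branches outside β-catenin, had 15 of 34 ratios above 1 and 19 below. All genes with 50 or more reads split 6335 to 6180. For the list, the interval was above 1 for 5 and below 1 for 7. Together these calls were 35.3% of the list, against 24.9% of all genes. Vangl1, a core polarity protein, was at 16.9 and 21.6 TPM (662 and 888 reads, 0.744, 0.671 to 0.823), and Daam1, a Dishevelled-binding formin, at 0.828 (0.754 to 0.909). The calcium-responsive factor Nfatc2 had 458 and 310 reads (1.47, 1.27 to 1.71), and Nfatc4 27 and 42 (0.641, 0.380 to 1.06). Intu had the highest ratio of the list, on 60.88 and 37.21 estimated reads that are not whole (1.63, 1.08 to 2.54). Over all 6 lists, 140 genes had 50 or more reads, with the interval excluding 1 for 35.0%, against 24.9% of all genes with 50 or more reads, and a median log2 read ratio of −0.02, and none was 2-fold apart by TPM.

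**Figure D4:**
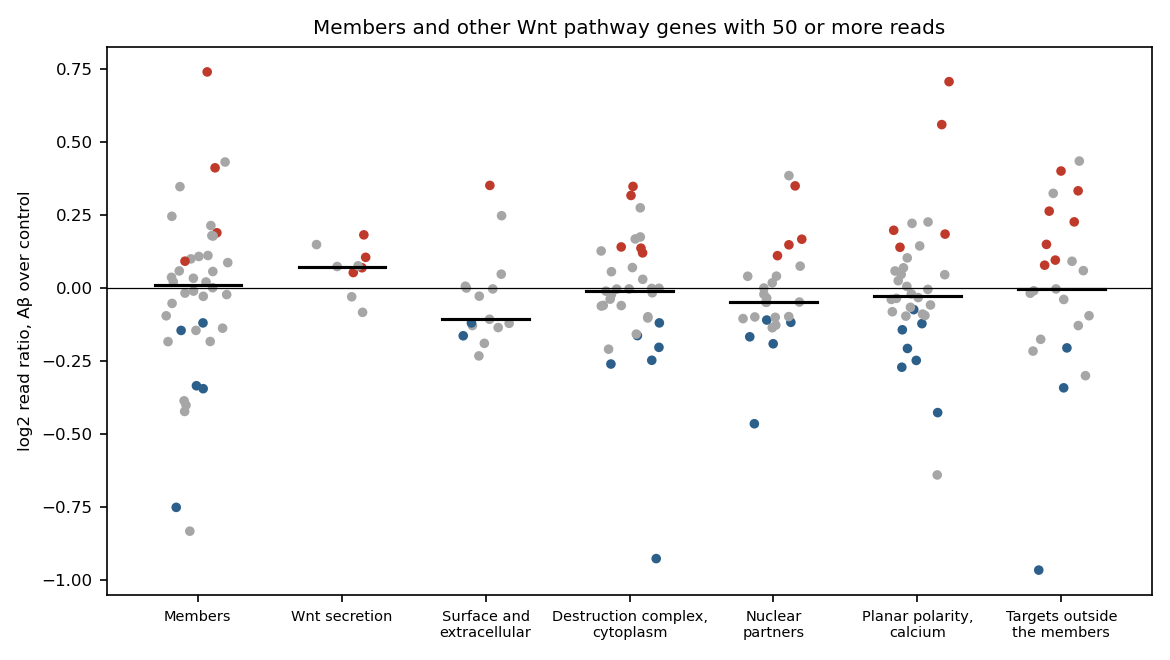
Log2 read ratio, Aβ over control, of members and of 6 lists of other Wnt pathway genes, 1 point per gene with 50 or more reads and a black line at each median. Red and blue points have a 95% counting interval above or below 1, and sideways scatter has no meaning. All medians lie within 0.11 of 0, and the lowest points are Ephb2 and Amer1.

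In the authors' deposited table of gene ontology terms among genes higher with Aβ, 282 terms name 246 distinct genes. Fzd9 is the only member among them. With 59 members among 17049 genes, members were thus named about as often as genes in general. The authors' deposited table holds 0 terms named for Wnt, catenin or Frizzled. Fzd9 is listed there under 9 terms, such as cognition and ossification.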

How the data were processed

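RNA was measured in 2 libraries, 1 per group. The submitters' processing notes name Bowtie2 and build Rnor_6.0. The version, the counting tool and the annotation are not stated in these sources. The authors' deposited table gives an estimated count, TPM and FPKM per gene. A deposited pair of columns named normalized equals the estimated count rounded up in all 17049 rows and entered no result. The deposited enrichment table gives a number of genes, a share of each term, fold ratio, z score, p-value and q-value. FPKM, as deposited by the authors, was not used.

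Library totals of 15704932 and 15663751 set the read ratios (Python 3.11.15, scipy 1.17.1), with counts rounded to whole numbers for the 95% intervals. No molecular identifiers are recorded, so reads may be copies of 1 molecule, and intervals and the floor of 3 reads cover counting error only. Estimated counts were not whole (tolerance 1e-09) for 2288 genes, 2 of them members (Fzd8 and Dvl1). Alternatives were edgeR 4.0.16 TMM and DESeq2 1.42.0 size factors, other read filters, TPM ratios and pseudocounts. The ratio steps were tested on simulated counts. Protein features, also planned, were not computed, since no protein sequences were used here.

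Members, lists and the rule for named genes (every member; in each other list the 4 with the largest absolute log2 read ratio among genes with 50 or more reads, whole in both libraries) were chosen with earlier results of these data known. RefSeq tables of build GRCr8 gave names and promoters; promoter coordinates are of that build, not of the deposited data.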

Additional observations from a re-analysis of the deposited data

How the results depend on the processing

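The 3 counts over all members, their median and the ratio of each of the 40 were recomputed under other settings, and the counts and medians of single roles and lists were not. Scaling by edgeR TMM or DESeq2 size factors left all 40 read ratios inside their counting intervals and changed no call by interval. The number of members at least 25% above or 20% below equality was 11 of 40 with at least 50 reads over both libraries. It was 20 of 51 with at least 10 reads, 4 of 31 with at least 200 reads and 26 of 59 with no filter. The count therefore changed with the filter, and members of few reads made up most of it. Shares of all genes at these other filters were not computed. By depth, 77.8% of members with 50 to under 200 reads passed, against 39.3% of all genes. The shares were 20% against 12.3% with 200 to under 1000 reads and 9.09% against 3.14% with 1000 to under 5000. With 5000 or more reads they were 0% against 2.48%. By TPM ratio, an alternative chosen after seeing the data, it was 10, without Fzd8. The number with an interval excluding 1 was 9 at every setting tried but 200 reads, where it was 7. No member of the 40 at 1 TPM in either library was 2-fold apart with a pseudocount of 0.1 or by CPM. With no filter and a pseudocount of 1 the number was also 0. A gene under 1 TPM in both libraries cannot reach 2-fold there, so this setting tests nothing for the members it adds. The median log2 read ratio ran from −0.0055 (whole reads only) to 0.0218 (TPM ratio). Lgr6 and Wnt16 change side of 1 by TPM (0.981 and 1.03), within their intervals. No paired analysis was possible because each group had 1 library. Depth limits the 19 members under 50 reads, whose intervals are wide.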
